A study of Homo sapiens with 6 samples.

Results

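The genes described here are 10 enzymes and subunits that write, maintain, remove or bind the DNA methylation mark, or that form the core of Polycomb repressive complex 2 (PRC2): DNMT1, DNMT3A, DNMT3B, UHRF1, TET1, TET2, TET3, EZH1, EZH2 and SUZ12. They were taken from the count table by gene symbol, with no threshold on their values, and all 10 were found among the 27685 genes of the count table and passed the filter on low counts. RNA was sequenced from Caco-2 cells, an established human colorectal cancer line whose cells take on features of absorptive intestinal cells. Cells transfected with an antisense construct to FABP1, a cytosolic fatty acid carrier, and labelled as its knockdown (3 libraries) were set against cells that got the vector pcDNA3 in a mock transfection and are labelled wild type (3 libraries), to ask how gene expression differed. Both groups were grown in the same serum-containing medium. Libraries are named by the numbers in the column headers, 2, 3 and 4. The labels do not say which promoter drives the construct, nor from how many lines or clones each group came, so a difference between lines and an effect of the construct cannot be told apart.

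The targeted gene did not bear out the group label. FABP1 stood at 134, 147 and 122 CPM (read counts scaled to effective library size) in the antisense-labelled libraries, against 138, 102 and 121 CPM in vector control libraries, and the groups overlapped. Its log2 fold change was 0.16 (SE 0.12), with an adjusted p of 0.268 in edgeR's quasi-likelihood fit (Benjamini-Hochberg), so the first group is called the antisense-labelled libraries throughout. Reads of the antisense construct itself, if counted here, cannot be told apart from those of the gene. Total counts ranged from 41768687 to 55153051 in the antisense-labelled libraries and from 40351394 to 57979037 in vector control libraries. Of 8 markers of colon epithelium 4 were higher and 2 lower, and their summed level was 16067 to 18950 CPM in the antisense-labelled libraries and 14274 to 17570 CPM in vector control libraries. Over all tested genes 27.7% were higher and 27.3% lower. KRT8 alone averaged 9447 CPM against 8666 CPM in the vector control, so the sum says little of the other markers. CDH17 was higher at 797 ± 17.5 CPM against 320 ± 21.2 CPM in the vector control, and CDX2 at 164 ± 12.4 CPM against 77.0 ± 5.39 CPM (SD, n = 3 each). The 2 lower ones were KRT19 and VIL1. Of 8 fibroblast markers 5 were tested, and 2 were higher and 2 lower. COL1A2, DCN and THY1 had 0 counts in every library. The summed level of the 8 was 31.5 to 35.6 CPM, against 39.4 to 42.3 CPM in the vector control. That sum covers opposite differences: LUM averaged 18.1 ± 1.87 CPM against 0.133 ± 0.0873 CPM in the vector control, and PDGFRA 0.386 ± 0.285 CPM against 22.7 ± 3.49 CPM (SD, n = 3 each). Of 8 leukocyte markers 5 were tested, and 3 were higher and 1 lower (63.9 to 67.2 CPM in sum, against 44.4 to 48.6 CPM in the vector control). CSF1R averaged 3.23 CPM against 0.264 CPM in the vector control, LYZ 25.4 against 12.3 CPM and CD68 33.7 against 20.8 CPM. The lower one, CD14, stood at 2.46 ± 0.239 CPM against 12.8 ± 1.41 CPM in the vector control (SD, n = 3 each). PTPRC had 0 counts in every library. Of 5 endothelial markers only 2 were tested, and these 2 were higher. The 5 summed to 2.39 to 2.67 CPM, against 0.833 to 1.42 CPM in the vector control, with CDH5, KDR and ERG at 0. The part of these markers in the results was not tested. The labels name no separate cultures, so p-values measure only how far these libraries spread, and that spread may be technical.

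DNA methyltransferases add a methyl group to cytosine, mainly at CpG. DNMT3A and DNMT3B set the mark on unmethylated DNA, and DNMT1 copies it after replication, guided by UHRF1, which binds the site methylated on the old strand. The TET dioxygenases oxidise the mark towards its removal. PRC2 trimethylates lysine 27 of histone H3: EZH2 or its paralog EZH1 carries the catalytic SET domain, and SUZ12 is the scaffold subunit without which the complex is unstable. In proliferating cells DNMT1, UHRF1 and EZH2 are known as genes induced around the G1/S transition by E2F factors, while EZH1 is the form typical of resting and differentiated cells.

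The start regions of 4 of the 10 genes hold a short word of the E2F type, though not the same word in all 4. These regions are shown because only UHRF1 of these 4 genes was lower in the comparison below. RefSeq windows of 300 bases (250 before and 50 after an annotated start, build GRCh38.p14) were matched for all 10 genes, 22 windows in all, and were searched on both strands for TTTCCCGC, TTTGGCGC and TTTCGCGC, whose matches in these windows did not overlap. DNMT1, UHRF1, EZH2 and SUZ12 held at least 1 of these words, against 3.30% of all 27305 genes with a window, and 5 of the 22 windows held one, against 2.74% of all windows. The stretches below run 5′ to 3′ on the gene's strand with the match in capitals, which reads as the reverse complement of the searched word in DNMT1 and in the first UHRF1 stretch. They lie at chr19:10194924-10194990 (minus strand) for DNMT1, chr19:4909452-4909529 and chr19:4909949-4910026 (plus strand) for UHRF1, chr7:148884262-148884325 (minus strand) for EZH2 and chr17:31936783-31936860 (plus strand) for SUZ12.
DNMT1: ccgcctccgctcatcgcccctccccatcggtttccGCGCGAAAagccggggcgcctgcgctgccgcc
UHRF1, first start: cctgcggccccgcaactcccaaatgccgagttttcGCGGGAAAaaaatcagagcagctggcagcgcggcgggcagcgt
UHRF1, second start: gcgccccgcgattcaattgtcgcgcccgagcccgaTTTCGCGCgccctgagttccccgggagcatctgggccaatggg
EZH2: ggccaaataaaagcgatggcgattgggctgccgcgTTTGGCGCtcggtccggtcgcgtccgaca
SUZ12: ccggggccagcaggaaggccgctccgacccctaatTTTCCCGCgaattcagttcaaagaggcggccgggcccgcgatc
The matches lie within 14 bases of the start in DNMT1, UHRF1 (first start) and EZH2, and 160 and 189 bases before it in UHRF1 (second start) and SUZ12. An observed over expected CpG ratio of 0.6 or more was reached by 16 of the 22 windows, against 48.9% of all windows, and by at least 1 window in 8 of the 10 genes, against 51.9% of all genes with a window. The listed windows do not cover every start. The single one of DNMT3B lies 17467 bases into the annotated gene, those of UHRF1 from 6421 to 7287 bases, and those of TET3 1279 and 19061 bases. For DNMT3B, UHRF1 and TET3 the search and the CpG ratio therefore say nothing of the start at the gene's 5′ end. The 10 genes also had more windows per gene, 22 in all against 35116 for the 27305 genes, which raises a share counted per gene.

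Of the 10 genes, 3 were lower in the antisense-labelled libraries (DNMT3B, UHRF1 and EZH1), none was higher and 7 missed edgeR's threshold of an adjusted p under 0.05. Across all 14640 genes tested, 27.3% were lower, 27.7% were higher and 55.0% differed in either direction, so the share of these genes that was lower was close to that of all genes. The count of higher genes was also 0 at an unadjusted p under 0.05 and by DESeq2, whereas 30.2% of all tested genes were higher at that unadjusted level and 23.9% by DESeq2. The median log2 fold change of the 10 genes was -0.13, and that of all tested genes 0.01. The libraries of the groups did not overlap for 4 of the 10 genes, these 3 lower and DNMT3A higher, against 62.7% of all tested genes (31.0% lower and 31.7% higher). In bulk RNA, fewer cells that express a gene and less of its RNA per cell cannot be told apart.

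**Figure D1:**
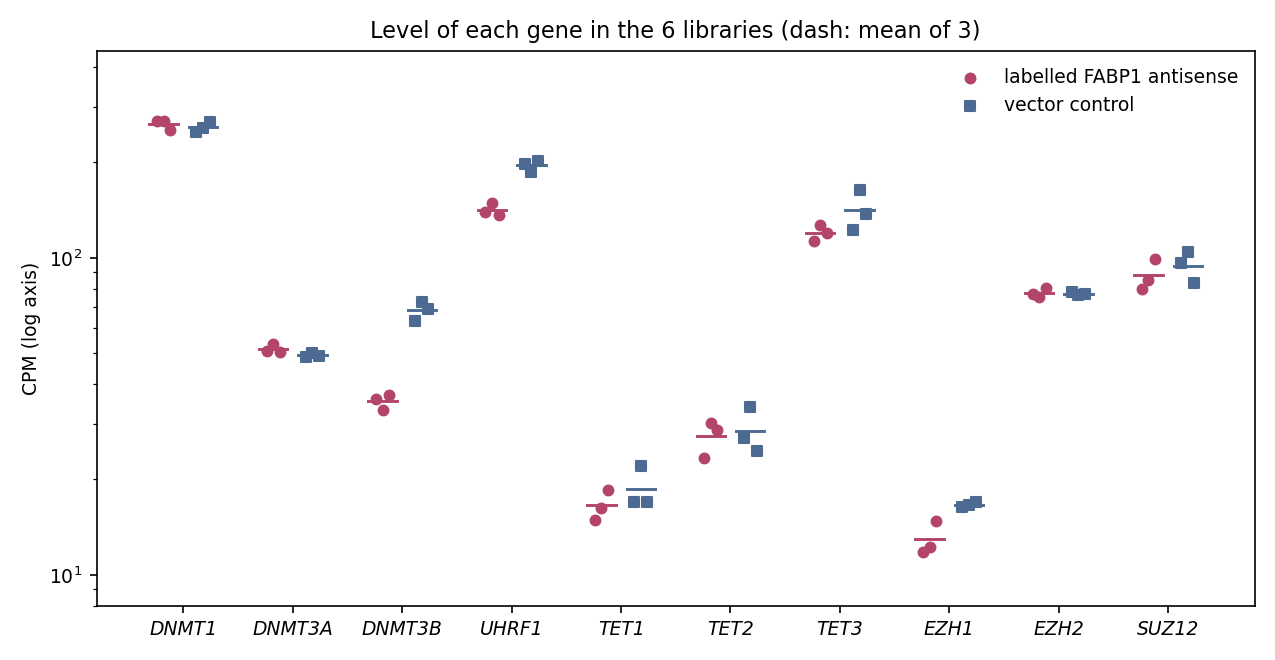
Level of each gene in CPM (log axis) in the 3 antisense-labelled libraries (circles) and the 3 vector control libraries (squares), with a dash at each mean. DNMT3B, UHRF1 and EZH1 lie below the vector control in every library, while the points of DNMT1, EZH2 and SUZ12 intermix.

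Among the maintenance genes, UHRF1 was lower and DNMT1 did not pass. UHRF1 stood at 139.7, 149 and 136 CPM in antisense-labelled libraries 2, 3 and 4, against 198, 187 and 202 CPM in vector control libraries 2, 3 and 4. Every antisense-labelled library lay below every vector control library, with a gap between 149 and 187 CPM. The mean was 142 ± 6.77 CPM against 196 ± 8.09 CPM (SD, n = 3 each), or 72.4% of the vector control. Its log2 fold change was -0.47 (SE 0.07), with an adjusted p of 0.000525 by edgeR. DNMT1 stood at 269.6, 270.2 and 254 CPM in the antisense-labelled libraries and at 249, 257 and 267 CPM in the vector control. Here the groups overlapped, the log2 fold change was 0.04 (SE 0.06), and the 95% interval of the fold ran from 0.928 to 1.13. The ratio between the factor and the methyltransferase that it brings to newly copied DNA did not overlap between the groups: the ratio of UHRF1 to DNMT1 CPM was 0.518, 0.553 and 0.537 in the antisense-labelled libraries and 0.795, 0.727 and 0.756 in the vector control.

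Of the enzymes that set new methylation, DNMT3B had the largest change of all 10 genes and DNMT3A did not pass. DNMT3B stood at 35.97, 33.1 and 36.9 CPM in the antisense-labelled libraries, against 63.4, 72.6 and 69.1 CPM in the vector control. All 3 libraries of the first group were far below the lowest vector control library. The mean was 35.3 ± 1.99 CPM against 68.4 ± 4.61 CPM (SD, n = 3 each), or 51.6% of the vector control, with a log2 fold change of -0.95 (SE 0.08) and an adjusted p of 1.9e-05 by edgeR. DNMT3A stood at 50.9, 53.6 and 50.7 CPM in the antisense-labelled libraries and at 48.8, 50.2 and 49.1 CPM in the vector control. The groups did not overlap, but by less than 1 CPM, and the log2 fold change of 0.07 (SE 0.07, adjusted p = 0.416 by edgeR) had a fold interval of 0.944 to 1.16. The ratio of DNMT3B to DNMT3A CPM was 0.707, 0.616 and 0.728 in the antisense-labelled libraries, all below 1, and 1.2995, 1.45 and 1.41 in the vector control, all above 1.

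None of the TET dioxygenases passed the test. TET3, the form with the highest level also per transcript length, stood at 113, 127 and 120.1 CPM in the antisense-labelled libraries, against 123, 163 and 138 CPM in the vector control. The groups overlapped by the control library at 123 CPM, and the log2 fold change of -0.24 (SE 0.11) had an adjusted p of 0.0893 by edgeR. It passed when vector control library 2 was left out, with a log2 fold change of -0.33 and an adjusted p of 0.0283, and in none of the other 11 alternative fits. TET3 overlaps BOLA3 in the annotation, which was higher (log2 fold change 0.29), and no source used here states if strand was used in counting, so reads of the pair may be mixed. TET2 stood at 23.4, 30.2 and 28.5 CPM in the antisense-labelled libraries and at 27.1, 33.9 and 24.6 CPM in the vector control. TET1, the lowest also per transcript length, stood at 14.9, 16.3 and 18.6 CPM in the antisense-labelled libraries and 17.0, 21.99 and 17.0 CPM in the vector control. For TET2 and TET1 the groups overlapped, the log2 fold changes were -0.06 (SE 0.14) and -0.17 (SE 0.13), and the fold intervals of 0.773 to 1.19 and 0.731 to 1.09 were wide beside those of DNMT1 and EZH2. TET2-AS1, the antisense partner of TET2, had 0 counts in all 6 libraries.

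In PRC2, EZH1 was lower, and EZH2 and SUZ12 did not pass. EZH1 stood at 11.8, 12.3 and 14.8 CPM in the antisense-labelled libraries, against 16.3, 16.6 and 16.9 CPM in the vector control. The vector control libraries lay within 1 CPM of each other and above all libraries of the other group, of which library 4 was the nearest. The mean was 12.9 ± 1.599 CPM against 16.6 ± 0.304 CPM (SD, n = 3 each), or 77.8% of the vector control, with a log2 fold change of -0.36 (SE 0.10) and an adjusted p of 0.0142 by edgeR. That call was lost when antisense-labelled library 2 or 3 was left out (adjusted p = 0.0633 and 0.0606 by edgeR, with log2 fold changes of -0.30 and -0.32). EZH2 stood at 76.8, 75.1 and 80.6 CPM in the antisense-labelled libraries and at 78.0, 76.3 and 77.0 CPM in the vector control. Its log2 fold change was 0.01 (SE 0.06), with a fold interval of 0.908 to 1.11. SUZ12 stood at 79.9, 85.4 and 99.1 CPM in the antisense-labelled libraries and at 96.0, 104 and 83.2 CPM in the vector control, overlapping widely, with a log2 fold change of -0.10 (SE 0.11). SUZ12P1, a partial pseudogene copy of SUZ12, was lower at 5.93, 5.97 and 8.03 CPM against 11.2, 11.05 and 9.41 CPM in the vector control, and reads could be split between the copies, which makes the SUZ12 value uncertain.

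**Figure D2:**
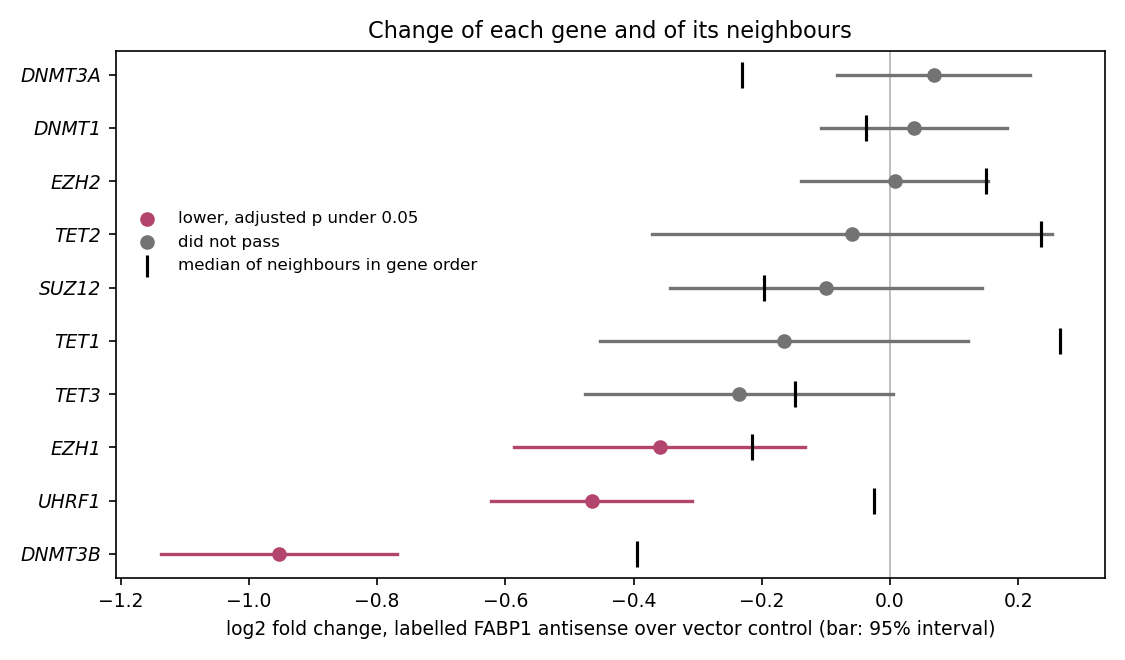
Log2 fold change of each gene, antisense-labelled libraries over vector control, with its 95% interval, and a tick at the median log2 fold change of its neighbours in gene order. DNMT3B, UHRF1 and EZH1 pass the test. The intervals of DNMT3B and UHRF1 lie wholly below their neighbours' medians of -0.39 and -0.03. That of EZH1 includes its neighbours' median of -0.22.

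Ratios between genes within a library do not depend on how libraries are scaled, and 7 were compared. For 4 of them the groups did not overlap: EZH2 to EZH1, DNMT3B to DNMT3A, DNMT3B to DNMT1 and UHRF1 to DNMT1. Each pairs a called gene (EZH1, DNMT3B or UHRF1) with a gene that did not pass, and the other 3 ratios hold no called gene. The 4 ratios therefore restate the calls above and are not separate results. For single genes, 62.7% of all tested genes did not overlap. The ratio of EZH2 to EZH1 CPM was 6.50, 6.13 and 5.45 in the antisense-labelled libraries, against 4.78, 4.59 and 4.54 in the vector control. The differences in mean log2 ratio were 0.37 for EZH2 to EZH1, -1.02 for DNMT3B to DNMT3A, -0.99 for DNMT3B to DNMT1 and -0.50 for UHRF1 to DNMT1. Each of these 4 had a two-sided exact permutation p of 0.1, the smallest that 3 libraries against 3 can give, or 0.175 adjusted over the 7 ratios. SUZ12 to EZH2, TET1 to TET3 and TET2 to TET3 overlapped between the groups (exact permutation p = 0.4, 0.7 and 0.3).

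**Figure D3:**
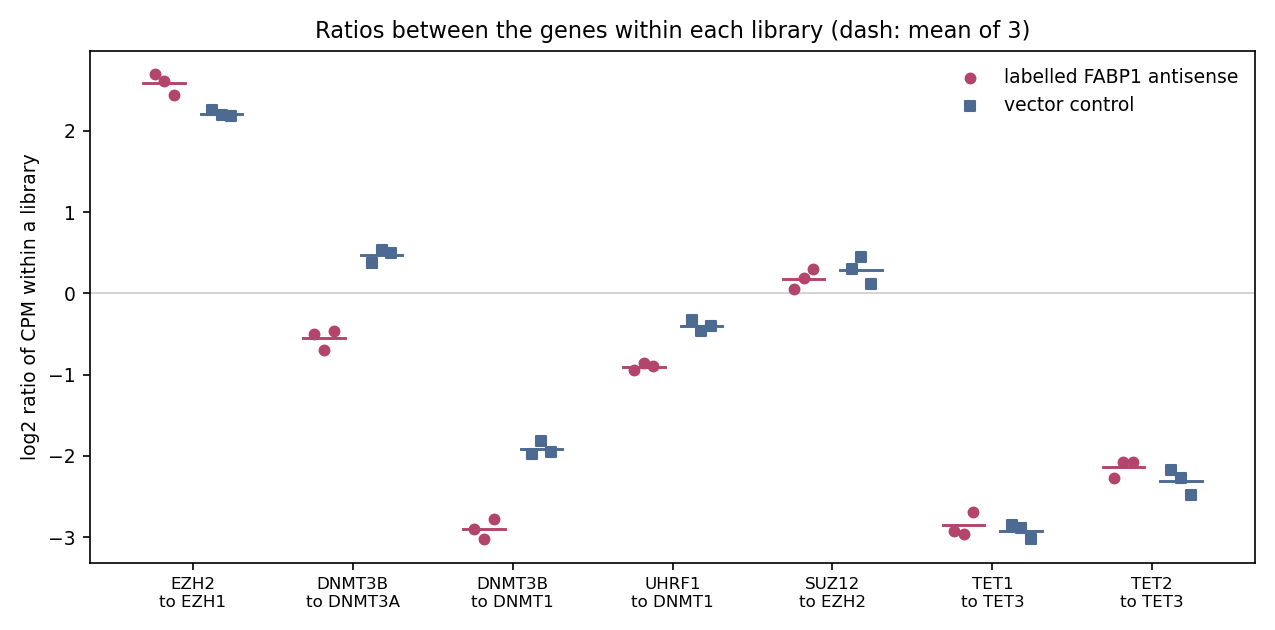
Log2 ratio of CPM between pairs of the genes within each library, circles for the antisense-labelled libraries and squares for the vector control, with a dash at each mean. The DNMT3B to DNMT3A ratio lies below 0 in the antisense-labelled libraries and above 0 in the vector control, and the last 3 ratios overlap.

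Levels can be set against each other between genes per transcript length, here CPM divided by the median length of the GENCODE transcripts that match the gene's RefSeq accessions. In the antisense-labelled libraries the order was DNMT1 (49.9 ± 1.74 CPM per kb), UHRF1 (43.9 ± 2.096), EZH2 (30.1 ± 1.09), SUZ12 (20.8 ± 2.34), DNMT3A (13.2 ± 0.422), TET3 (10.5 ± 0.599), DNMT3B (8.52 ± 0.480), EZH1 (3.64 ± 0.4499), TET2 (2.89 ± 0.376) and TET1 (1.79 ± 0.197; SD, n = 3). In the vector control the order was UHRF1 (60.6 ± 2.505 CPM per kb), DNMT1 (48.6 ± 1.71), EZH2 (29.98 ± 0.337), SUZ12 (22.3 ± 2.48), DNMT3B (16.5 ± 1.11), DNMT3A (12.5 ± 0.180), TET3 (12.4 ± 1.81), EZH1 (4.68 ± 0.0855), TET2 (3.02 ± 0.511) and TET1 (2.01 ± 0.311; SD, n = 3). UHRF1 and DNMT3B each stood lower in the order in the antisense-labelled libraries. DNMT3A and TET3 in the vector control differed by less than their spread. These places rest on the length used: the matched transcripts of DNMT3A run from 1.77 to 9.501 kb, which would put it anywhere between 5.45 and 29.1 CPM per kb in the antisense-labelled libraries, and those of UHRF1 run from 2.65 to 4.31 kb.

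Neighbouring genes of some of the 10 genes were mostly lower or mostly higher, so each gene was set beside its neighbours in gene order, up to 50 tested genes on either side whose mean log2 CPM was 3 or more. Over all tested genes, of any level, 27.3% were lower and 27.7% higher, and no share was taken for genes at this level alone. Around DNMT3B, on chromosome 20, 63 of its 100 neighbours were lower and 11 higher, with a median log2 fold change of -0.39. Its own log2 fold change less that median was -0.56, and 5 of the 100 neighbours had a lower value. Its nearest tested neighbours COMMD7 and MAPRE1 were also lower, at -0.79 (SE 0.07) and -0.32 (SE 0.07). The neighbours of UHRF1, on chromosome 19, were near balance, with 21 lower, 19 higher and a median of -0.03, and 6 of the 100 lay below it. The nearest tested genes to UHRF1, PLIN3 and KDM4B, did not pass (log2 fold changes 0.04 and 0.03). EZH1, on chromosome 17, had 51 lower and 6 higher neighbours with a median of -0.22, and 30 of the 100 lay below it. Of its nearest tested neighbours, CNTNAP1 was lower at -1.67 (SE 0.19) and RAMP2-AS1 did not pass (log2 fold change -0.43, SE 0.17).

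TET1 and TET2 had mostly higher neighbours, 56 and 50 of 100 against 14 and 11 lower, with medians of 0.26 and 0.24, and their own log2 fold changes less those medians were -0.43 and -0.29. DNMT3A had 53 lower and 6 higher neighbours with a median of -0.23, and lay 0.30 above it. SUZ12 had 44 lower and 11 higher neighbours and a median of -0.20. The medians at DNMT1, TET3 and EZH2 were -0.04, -0.15 and 0.15. With 25 genes on either side the medians were -0.48 at DNMT3B, -0.01 at UHRF1 and -0.20 at EZH1, and those at TET3 and EZH2 moved to -0.25 and 0.03. The part of these shifts in the results was not tested.

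**Figure D4:**
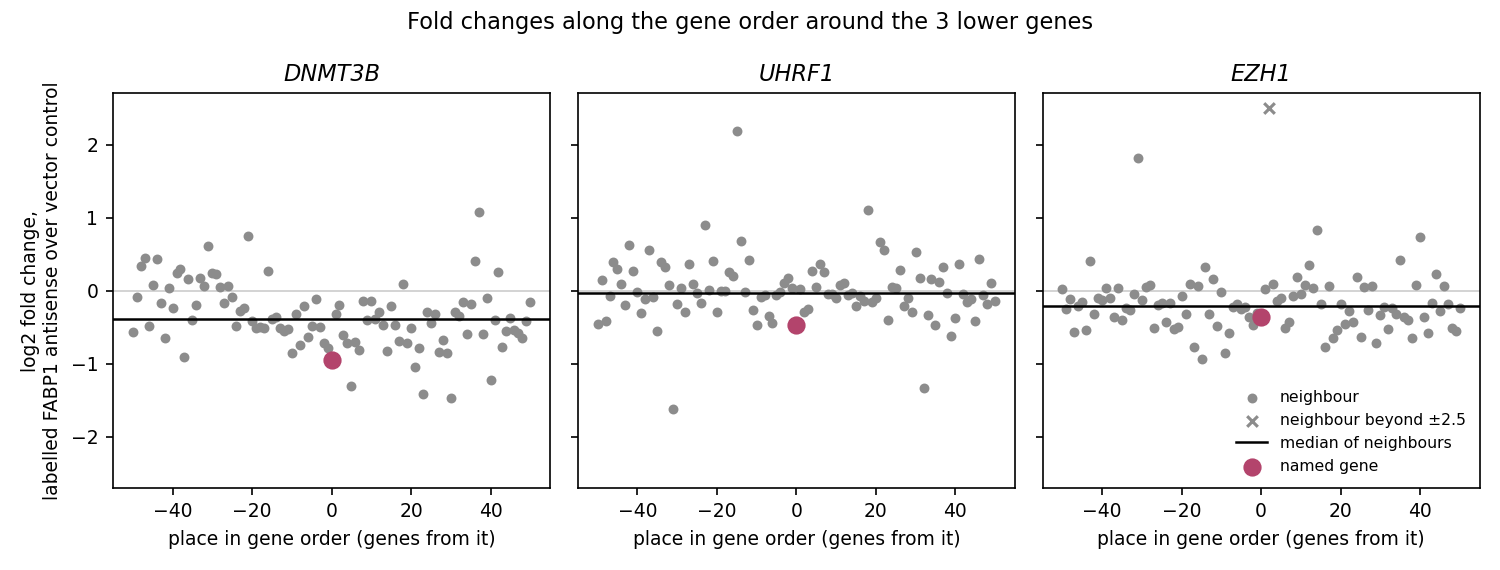
Log2 fold change, antisense-labelled libraries over vector control, of up to 50 neighbours on either side of DNMT3B, UHRF1 and EZH1 in gene order, with the named gene as a large point and a line at the neighbours' median. The line lies at -0.39 around DNMT3B, -0.03 around UHRF1 and -0.22 around EZH1; crosses at the edge are neighbours beyond the axis.

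The 3 genes with the pattern closest to DNMT3B over the 6 libraries, by the root mean square difference of centred log2 CPM among 11989 other genes, were TRPV3 (0.0319), PIAS3 (0.0414) and TBC1D20 (0.0447). TRPV3 had 13.6, 12.5 and 14.5 CPM in the antisense-labelled libraries, against 25.8, 28.4 and 27.8 CPM in the vector control. The log2 fold changes of TRPV3, PIAS3 and TBC1D20 were -1.01, -0.97 and -0.87. TBC1D20 lies on chromosome 20 as DNMT3B does, and TRPV3 and PIAS3 lie on chromosomes 17 and 1.

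Of 14 listed partners of the DNA methyltransferases 12 were tested: 4 were higher, 3 lower and 5 did not pass (median log2 fold change 0.04), shares close to the 27.7% higher and 27.3% lower over all tested genes. Differences in the lists are given on the log2 scale. TRDMT1, a relative of the DNMT family that methylates transfer RNA, was higher by 0.56 (SE 0.14), the PCNA-binding protein gene PCLAF by 0.34 (SE 0.10), USP7, a deubiquitinase that binds DNMT1 and UHRF1, by 0.25 (SE 0.07) and CDCA7, a partner of the chromatin remodeller HELLS, by 0.25 (SE 0.08). Neighbour medians were 0.26 at TRDMT1, 0.32 at PCLAF, 0.08 at USP7 and -0.03 at CDCA7. The count of 4 was 2 without antisense-labelled library 2, and 1 without library 4 of that group or without vector control library 2. DMAP1, which binds DNMT1, was lower at -0.44 (SE 0.11), and the histone H3 lysine 9 methyltransferase genes EHMT2 and SETDB1 by -0.42 (SE 0.09) and -0.36 (SE 0.07), values near the medians of their neighbours (-0.44, -0.35 and -0.36). UHRF2, the paralog of UHRF1, had 19.1 ± 1.25 CPM against 15.9 ± 2.04 CPM in the vector control (SD, n = 3 each) and did not pass (log2 fold change 0.26, SE 0.11). DNMT3L, the catalytically inactive partner of the DNMT3 enzymes, had 23 counts in all antisense-labelled libraries together and 14 in the vector control, too few to be tested.

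Of 11 listed readers of CpG 10 were tested, and 3 were higher and none lower by edgeR (median 0.02). Over all tested genes the shares were 27.7% and 27.3%. Of the readers, 2 were lower at an unadjusted p under 0.05, 1 by DESeq2, and 1 by edgeR without vector control library 3. The methyl-CpG binding factors ZBTB33, ZBTB38 and MBD1 were higher by 0.54 (SE 0.12), 0.46 (SE 0.11) and 0.36 (SE 0.08). Of 12 genes tested that work with the TET enzymes 4 were higher and 2 lower (median 0.05), against 27.7% and 27.3% of all tested genes. IDH1, whose enzyme makes a cofactor of TET enzymes, averaged 423 ± 1.99 CPM against 266 ± 7.52 CPM in the vector control (SD, n = 3 each), a log2 fold change of 0.67 (SE 0.06). The stress genes GADD45B and GADD45A were higher by 0.62 (SE 0.12) and lower at -0.69 (SE 0.08). TDG, the glycosylase that removes oxidised methylcytosine, was higher by 0.47 (SE 0.10), in a stretch of higher genes with a median of 0.50. OGT, a sugar transferase that binds TET proteins, was higher by 0.20 (SE 0.07), and the mitochondrial IDH2 was lower at -0.31 (SE 0.08).

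Of 11 other PRC2 subunit genes tested, 3 were higher and 4 lower (median -0.10), against 27.7% and 27.3% of all tested genes. The histone-binding subunit genes RBBP4 and RBBP7 were lower at -0.45 (SE 0.07) and -0.20 (SE 0.07), and the accessory subunit genes PHF1 and JARID2 by -0.43 (SE 0.08) and -0.29 (SE 0.09). The accessory subunit genes LCOR, EPOP and AEBP2 were higher by 0.50 (SE 0.16), 0.48 (SE 0.09) and 0.29 (SE 0.07). Neighbour medians were -0.47 at RBBP4, 0.07 at RBBP7, -0.33 at PHF1, -0.12 at JARID2, 0.14 at LCOR, -0.19 at EPOP and 0.32 at AEBP2. EED, the core subunit that binds the mark PRC2 makes, had 55.7 ± 2.13 CPM against 59.9 ± 1.83 CPM in the vector control (SD, n = 3 each) and did not pass (log2 fold change -0.10, SE 0.07). The count of 4 lower genes was 2 without antisense-labelled library 3 or 4, or without vector control library 2.

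Polycomb repressive complex 1 (PRC1) ubiquitinates histone H2A, and its forms with a CBX subunit bind the PRC2 mark. Of 26 PRC1 genes tested 7 were higher and 11 lower (median -0.05), against 27.7% and 27.3% of all tested genes. The reader subunit genes CBX6 and CBX7 were lower at -1.05 (SE 0.09) and -0.79 (SE 0.16), and SCMH1 by -0.82 (SE 0.08). CBX6 averaged 35.5 ± 2.44 CPM against 73.4 ± 7.06 CPM in the vector control (SD, n = 3 each). BMI1, a RING finger subunit gene, was higher by 0.48 (SE 0.12), PCGF3 by 0.42 (SE 0.08) and MGA by 0.42 (SE 0.10). RING1 and RNF2, also RING finger subunit genes, were lower at -0.71 (SE 0.08) and -0.31 (SE 0.10). Neighbour medians were -0.26 at CBX6 and CBX7, -0.44 at SCMH1, 0.28 at BMI1, -0.04 at PCGF3 and 0.23 at MGA. At RING1 and RNF2 they were -0.35 and -0.19.

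Among 14 tested genes whose products oppose Polycomb, 4 were higher and 2 lower (median 0.06), against 27.7% and 27.3% of all tested genes. NSD1, which dimethylates histone H3 lysine 36, a mark that DNMT3A binds, stood out in size: it averaged 28.8 ± 3.31 CPM in the antisense-labelled libraries against 5.05 ± 0.871 CPM in the vector control (SD, n = 3 each), a log2 fold change of 2.51 (SE 0.14). The lysine 27 demethylase genes KDM6B and KDM6A were higher by 0.36 (SE 0.09) and 0.31 (SE 0.08), and the Trithorax methyltransferase gene KMT2D by 0.34 (SE 0.12). Neighbour medians were 0.11 at NSD1, 0.05 at KDM6B, 0.09 at KDM6A and 0.33 at KMT2D. ASXL1, partner of the H2A deubiquitinase BAP1 and on chromosome 20 like DNMT3B, was lower at -0.50 (SE 0.06) beside a neighbour median of -0.38. ASH1L was lower at -0.38 (SE 0.13), also beside a neighbour median of -0.38. The count of 2 lower genes was 1 without antisense-labelled library 2 or 3, without vector control library 3, and with scaling by library size only.

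**Figure D5:**
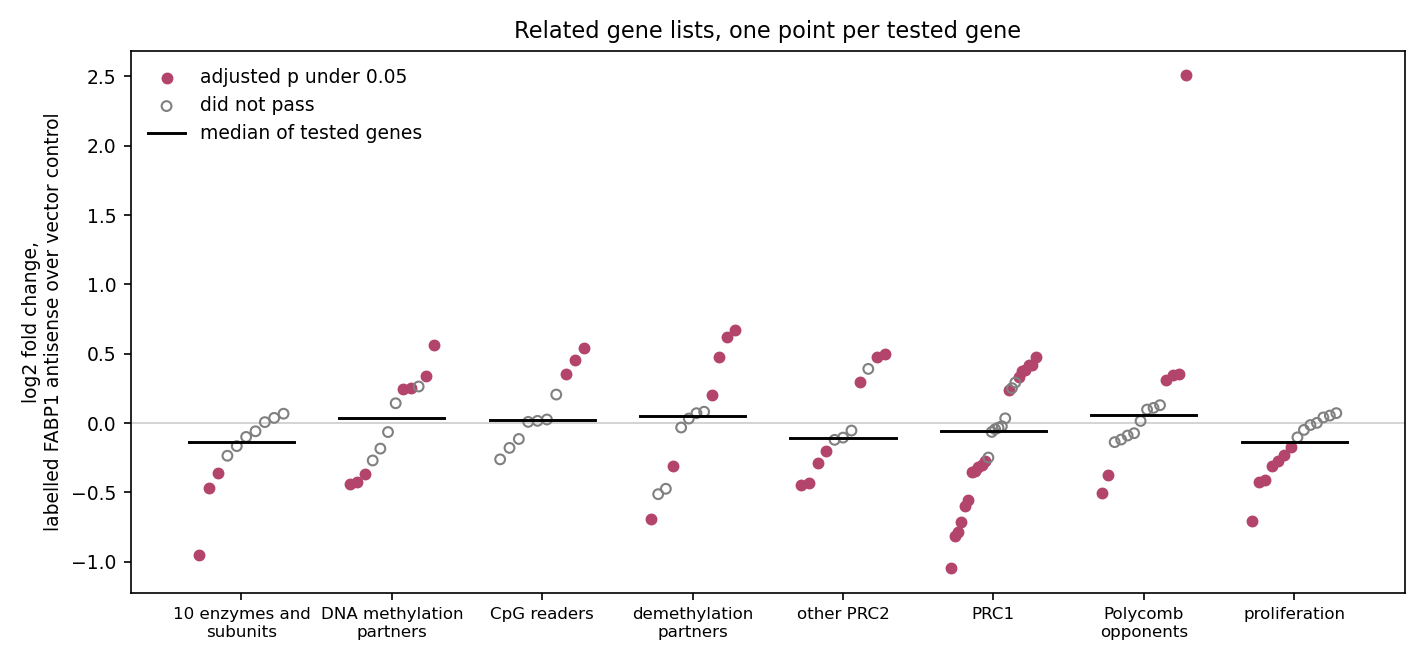
Log2 fold change, antisense-labelled libraries over vector control, of each tested gene in the 10 genes and 7 related lists, filled where the adjusted p was under 0.05, with a line at each list's median. Medians lie between -0.14 and 0.06, and NSD1 is the single point above 2.

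Since UHRF1, DNMT1 and EZH2 follow the cell cycle, replication and proliferation genes were set beside them. Of 14 tested, 7 were lower and none higher by edgeR (0 higher at an unadjusted p under 0.05 and by DESeq2), with a median of -0.14, against 27.3% lower and 27.7% higher over all tested genes. The count of lower genes was 5 to 7 with 1 library left out. E2F1 was lower at -0.71 (SE 0.09), and RRM2 and MCM5 by -0.43 (SE 0.07) and -0.41 (SE 0.09). Neighbour medians were -0.40 at E2F1, on chromosome 20, -0.22 at RRM2 and -0.25 at MCM5. MKI67, PCNA and TOP2A did not pass, with log2 fold changes of -0.10 (SE 0.09), 0.00 (SE 0.07) and -0.05 (SE 0.08). Of these genes E2F1 alone had a lower log2 fold change than UHRF1. The part of proliferation in the level of UHRF1 was not tested.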

How the data were processed

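Per the labels' protocols, RNA was isolated with TRIzol and libraries were made with a stranded TruSeq mRNA kit. The submitters' processing notes list StringTie 1.3.4d, HISAT2 2.1.0, Trimmomatic 0.38, Bowtie2 2.3.4.1, bcl2fastq and, as build, GRCh37, without saying what each was for. The authors deposited read counts per gene and library, not normalized, which were used here; 12 per-library columns of FPKM and TPM were not used. Columns could be matched to groups only, since their header numbers differ from the labels' replicate numbers.

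The fit used edgeR 4.0.16 under R 4.3.3: filterByExpr (14640 genes kept), TMM scaling and the quasi-likelihood test over all tested genes. A gene was called at a Benjamini-Hochberg adjusted p under 0.05. CPM used TMM effective library sizes. At this depth 3 counts correspond to 0.0521 to 0.0735 CPM per library, and such floors cover counting error only. The SE of a log2 fold change is its size over the square root of F. The test was tried on simulated counts before use. Fold changes are those of the antisense-labelled libraries over vector control.

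Gene order came from RefSeq (GRCh38.p14), another build than the counts, which placed 14602 tested genes, so no gene coordinates are given, only those of RefSeq promoter windows. Lengths came from GENCODE v29 transcripts matched by RefSeq accession. Alternatives were the DESeq2 1.42.0 test, scaling by library size only or by the size factors of DESeq2, no filter or a CPM of at least 1 in 3 libraries, each library left out in turn, header numbers as a block, and 25 in place of 50 neighbours. The 10 genes, lists and tests were chosen with earlier results of these data known. Beyond the 10 genes, list members were named where called at a mean log2 CPM of 1 or more, up to 3 in each direction by size, as were the nearest tested neighbours of the 3 called genes and the 3 genes most like the most changed member. CDCA7, UHRF2, DNMT3L, OGT, RBBP7, EED, RING1, RNF2, KDM6A, MKI67, PCNA and TOP2A were named after their values were seen. So were the markers KRT8, CDH17, CDX2, KRT19, VIL1, LUM, PDGFRA, CD14, CSF1R, LYZ and CD68, genes too low to test and partners that share reads. The rest used Python 3.11.15 with pandas 2.3.3, scipy 1.17.1, numpy 2.4.6 and matplotlib 3.10.9.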

Additional observations from a re-analysis of the deposited data

How the results depend on the processing

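Over 12 alternative fits, the 10 genes held 0 higher calls in every fit and 2 to 4 lower calls, and all tested genes 3355 to 4163 higher and 3306 to 3958 lower calls. DNMT3B and UHRF1 passed in every fit (log2 fold changes of -1.01 to -0.91 and -0.50 to -0.44), and EZH1 in 10 of the 12. Values near 0 changed sign without passing: TET2 was 0.041 without antisense-labelled library 2 and 0.080 without vector control library 3 (range -0.16 to 0.080 with 1 library left out), and EZH2 was -0.0021 with no filter on low counts, -0.024 without antisense-labelled library 4 and -0.0032 without vector control library 3 (range -0.024 to 0.032). The difference in the log2 ratio of TET1 to TET3 was -0.018 without antisense-labelled library 4, and up to 0.11 otherwise. The cause of these changes was not tested.

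Header numbers did not pair the libraries: deviations of same-numbered libraries correlated by 0.04, -0.15 and -0.25. With these numbers as a replicate block the calls over all genes were 3355 higher and 3306 lower, the 10 genes again had 3 lower (DNMT3B, UHRF1 and EZH1, adjusted p = 0.00044, 0.0063 and 0.028 by edgeR), and the higher calls were 4 in PRC1 and 2 among DNA methylation partners, the lower calls 2 among other PRC2 genes and 1 among TET partners, and PIWIL2 was not called. The SE of the log2 fold changes ran from 0.06 for DNMT1 and EZH2 to 0.14 for TET2, which limits how small a difference could be called.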

Other observations

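Genes whose expression is tied to DNA methylation were also read out. Imprinting means expression from a single parental allele, and the counts here do not tell alleles apart. Of 21 genes listed as imprinted 12 were tested, and 3 were higher and 6 lower (median log2 fold change -0.23). Over all tested genes the shares were 27.7% and 27.3%. The growth factor gene IGF2 averaged 2166 ± 162 CPM in the antisense-labelled libraries and 1336 ± 57.7 CPM in the vector control (SD, n = 3 each), a log2 fold change of 0.70 (SE 0.07). Its neighbour H19, a noncoding RNA normally expressed from the other allele, had 11 counts over the antisense-labelled libraries and 1 over the vector control, too few to be tested. PHLDA2 and the adaptor gene GRB10 were higher by 0.93 (SE 0.13) and 0.38 (SE 0.07), and ZDBF2, the cell cycle inhibitor gene CDKN1C and SNRPN lower by -2.13 (SE 0.21), -0.93 (SE 0.26) and -0.53 (SE 0.09).

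Germline and cancer-testis genes, which promoter methylation keeps silent in somatic cells, had few or no counts except for PIWIL2. Of 24 listed, 20 had 0 counts in all 6 libraries, among them DAZL, MAEL, SYCP3 and MAGEA1, and 1 was tested. That gene, PIWIL2, averaged 5.28 ± 0.377 CPM against 3.84 ± 0.582 CPM in the vector control (SD, n = 3 each), a log2 fold change of 0.46 (SE 0.15, adjusted p = 0.025 by edgeR), a call lost without antisense-labelled library 2 or 4 and without vector control library 2 or library 4. TDRD1 and SSX1 had 5 and 3 counts, all in antisense-labelled library 2, and 0 over the vector control. MAGEC2 had 0 counts over the antisense-labelled libraries and 3 in the vector control, all in library 3.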
